A study of Mus musculus with 2 samples.

Results

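The extracellular matrix and matricellular genes are a set of 39 named genes for collagen chains, matrix glycoproteins, proteoglycans, basement membrane components and the enzymes and chaperone that assemble collagen. They are a list of gene names with no rule on measured values, drawn up with earlier results of these data known, and all 39 appear in at least 1 of the files, among 15605 genes listed. RNA was sequenced from peritoneal macrophages of C57BL/6 mice aged 6 to 8 weeks, either wild type or labelled lgmn-/-, after 4 days of co-culture with the mouse breast cancer line EO771. Lgmn encodes legumain, a lysosomal protease that cleaves after asparagine. With 1 library per genotype there is no test, and higher and lower describe these libraries only. The number of mice behind a library, the deleted exons and the format of the co-culture are unknown here. The 95% intervals are exact Clopper-Pearson intervals that cover counting error only.

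The extracellular matrix is the protein scaffold that cells secrete around themselves. Fibrillar collagens give it tensile strength, fibronectin and laminins carry the sites that cell surface integrins bind, and matricellular proteins such as thrombospondins, SPARC and the CCN family signal to cells without being structural. Fibroblasts and smooth muscle cells are the main makers of fibrillar collagen, while macrophages are known to make some matrix proteins and to take up and degrade others.

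The total of estimated counts was 11885784 for wild type and 11740202 for knockout. Lgmn (Entrez gene 19141) had 23550 wild type and 426 knockout counts, which fits the genotype labels. Macrophage genes such as Lyz2 and Cd68 were abundant in both. The 12 macrophage markers held 269737 and 247531 counts, most of them from those genes. Of the 10 tested, 1, the efferocytosis receptor gene Mertk, was at least 2-fold higher, against 6.05% of all genes tested. The receptor gene Csf1r and the lysosomal gene Cd68 followed, with log2 ratios of 0.96 and -0.70. Of the 12 intervals, 4 lay wholly below equality and 6 wholly above. Gata6, with 23 and 28 counts, and Timd4, with 20 and 16, had few in either library. Across all genes the ratio followed transcript length, with a median log2 ratio of -0.37 in the tenth of genes with the shortest transcripts and 0.77 in the tenth with the longest. Values with this trend subtracted are called length-adjusted below.

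Most matrix genes with enough counts were several fold lower in the knockout library, and Thbs1, Ecm1, Fn1, Lamc1 and Loxl2 were not 2-fold lower. A member was compared only if the library where it was higher held at least 50 estimated counts for it, which 20 of the 39 did. Among these, 15 were lower by 2-fold or more, 5 differed by less and 0 were higher by 2-fold. Over all 9498 genes with enough counts, 1.74% were at least 2-fold lower and 6.05% at least 2-fold higher. Higher genes made up 77.7% of all genes beyond 2-fold, and 90.6% when libraries were scaled by their totals. The median log2 ratio, taken as knockout over wild type after adding 1 scaled count, was -2.12 for the 20 members and -0.00061 for all genes. After length adjustment Fn1 and Loxl2 joined the lower members, which made 17, and 0 were 2-fold higher, against 1.9% and 2.14% of all genes. The median was then -2.44.

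The minimum itself favours a difference for members that met it in 1 library alone. A group of 8 genes, Col1a1, Col3a1, Col5a2, Ccn1, Mgp, Serpinf1, Nid1 and Lox, had under 50 counts in the knockout library, and all 8 were at least 2-fold lower. Among all genes that passed in that way, 48.7% were. The other 12 members had at least 50 counts in both libraries. Of those, 7 were at least 2-fold lower, against 1.03% of all such genes. In bulk RNA, fewer cells of a type and less RNA per cell cannot be told apart.

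**Figure D1:**
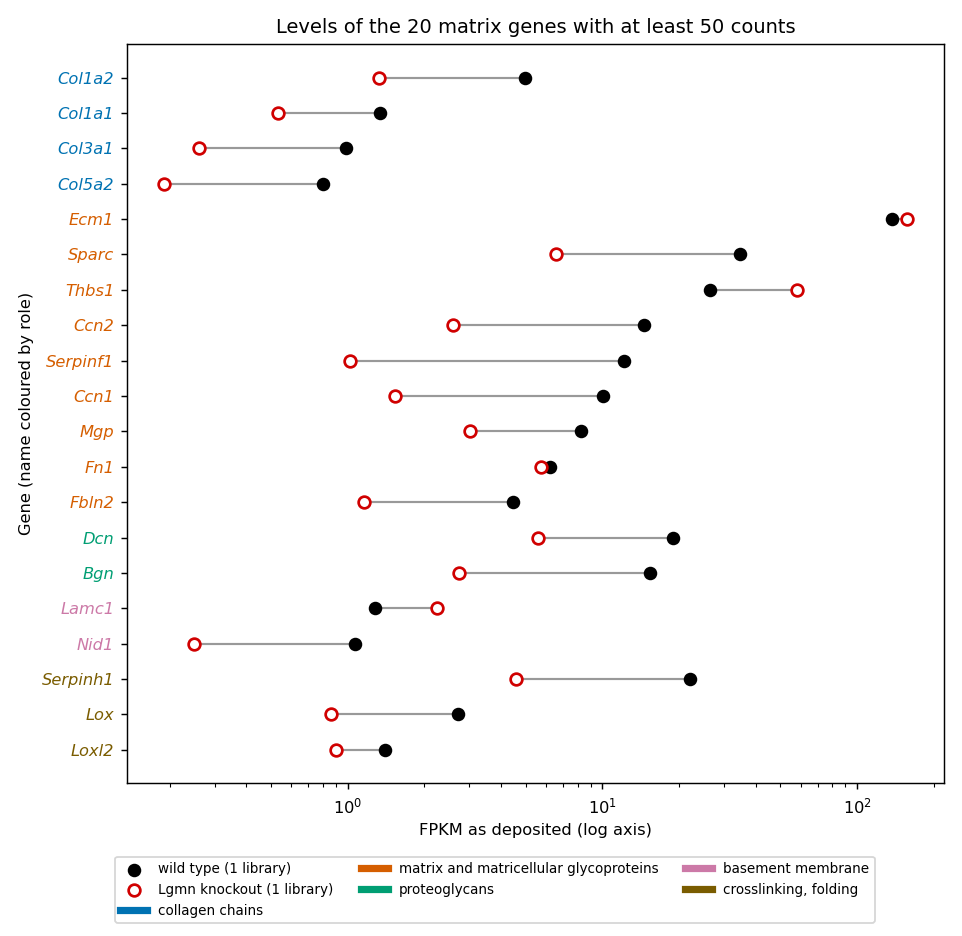
Deposited FPKM on a log axis for the 20 matrix genes with at least 50 estimated counts, with a filled point for the wild type library and an open point for the Lgmn knockout library. The open point lies to the left for 17 genes and to the right for Ecm1, Thbs1 and Lamc1.

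The fibrillar collagen genes with enough counts were all lower, 3 of them with under 50 knockout counts. Col1a1 and Col1a2 encode the chains of type I collagen, the main collagen of bone, skin and tendon. Col1a2 had 314 wild type and 83 knockout counts, 4.41-fold lower (3.45 to 5.69). Col1a1 had 97 and 38 counts, 2.98-fold lower (2.03 to 4.45). Their intervals overlap, and a difference between the chains was not tested. Per length, Col1a1 was below Col1a2 in both libraries, with FPKM of 1.34 against 4.95 in wild type and 0.53 against 1.33 in knockout. Col3a1, whose type III collagen forms fibres with type I, had 66 and 17 counts, 4.53-fold lower (2.62 to 8.23). Col5a2, a chain of type V collagen, which nucleates fibrils, had 64 and 15 counts, 4.97-fold lower (2.80 to 9.40). All of the 4 were at least 2-fold lower, and length adjustment moved their median log2 ratio from -2.12 to -2.59.

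The other 9 collagen genes had fewer than 50 counts, and their intervals divide them. Type VI collagen forms beaded microfilaments near the cell surface. Col6a1 had 43 and 13 counts, 3.86-fold lower (2.04 to 7.82), and Col6a2 had 23 and 5, 5.36-fold lower (1.99 to 18.1). Col12a1, a fibril-associated collagen, had 20 and 6 counts, 3.89-fold lower (1.5 to 11.8). For these 3 genes the interval lay wholly below equality. It included equality for Col4a1, with 22 counts in each library, Col4a2, with 17 and 11, and Col5a1, with 18 and 13. Col4a1 and Col4a2 encode the chains of the common type IV collagen of basement membranes. Col6a3, Col8a1 and Col18a1 had at most 10 counts in either library and could not be resolved at this depth. Summed over the 13 collagen genes, 703 and 233 counts give a ratio 3.52-fold lower in the knockout library (3.03 to 4.10).

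Among the glycoproteins, Sparc and the CCN genes were lower by 6-fold or more and Serpinf1 by more than that. SPARC binds collagen and is secreted by cells that remodel matrix. Sparc had 1104 wild type and 207 knockout counts, 6.22-fold lower (5.35 to 7.25), and its FPKM was 34.7 against 6.59. Ccn1 and Ccn2, also named Cyr61 and Ctgf, encode matricellular proteins that bind integrins and respond quickly to growth factors and stretch. Ccn1 had 245 and 37 counts, 7.72-fold lower (5.45 to 11.2), and Ccn2 423 and 74, 6.66-fold lower (5.19 to 8.65). These intervals overlap, and a difference between Ccn1 and Ccn2 was not tested. Serpinf1 encodes pigment epithelium-derived factor, a secreted serpin that binds collagen and restrains angiogenesis. It had 218 and 18 counts, 14.1-fold lower (8.72 to 24.3), which was the largest difference among members with enough counts.

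Fbln2 and Mgp were lower by less. Fibulin-2, the product of Fbln2, links elastic fibres and basement membranes. Fbln2 had 237 and 60 counts, 4.60-fold lower (3.46 to 6.22). Mgp encodes matrix Gla protein, an inhibitor of calcification, and had 58 and 21 counts, 3.22-fold lower (1.92 to 5.58). At 614 bases its transcript is the shortest among these members. On the log2 scale Mgp went from -1.64 to -1.24 with length adjustment. The adjustment brought Mgp nearer to 0 and took lower members with long transcripts further from it, while Thbs1 fell to a value nearer 0.

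Thbs1, Ecm1 and Fn1 were the most highly counted of the members that were not 2-fold lower. Thbs1 encodes thrombospondin-1, a platelet and macrophage product that inhibits angiogenesis and activates latent TGF-beta. It had 1886 wild type and 4074 knockout counts, 1.85-fold higher (1.75 to 1.96). Its log2 ratio was 0.89, 0.35 after length adjustment and 1.13 with library totals or deposited FPKM, so it passed 2-fold on those scales alone. Ecm1, extracellular matrix protein 1, had 3131 and 3540 counts, 0.970 times the wild type level after scaling, with an interval of 0.924 to 1.02 that includes equality. Its log2 ratio was -0.04, became 0.12 with the length trend subtracted and 0.19 with library totals, so its direction depends on the scale. Fn1, fibronectin, had 609 and 546 counts, 1.30-fold lower (1.16 to 1.46). Because its transcript is long, its log2 ratio of -0.38 became -1.20 after length adjustment, beyond 2-fold.

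Thbs2, the close relative of Thbs1, was not among the tested genes but differed in the other direction. It had 45 wild type counts and 1 knockout count, a ratio 52.5-fold lower with a very wide interval of 8.95 to 2117. Its interval does not overlap that of Thbs1. Tnc, tenascin-C, a matricellular protein of wounds and tumour stroma, had 38 and 9 counts, 4.92-fold lower (2.34 to 11.6). Fbn1, fibrillin-1 of elastic microfibrils, had 16 and 5, 3.73-fold lower (1.31 to 13.0). Postn, periostin, had 4 and 5 counts. Eln, elastin, had 1 and 0, which is under the limit of 3 counts that a count of 0 allows. Eln was therefore not measurable at this depth. The ratio of Postn was not resolved, with an interval of 0.231 to 5.40 times the wild type level.

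**Figure D2:**
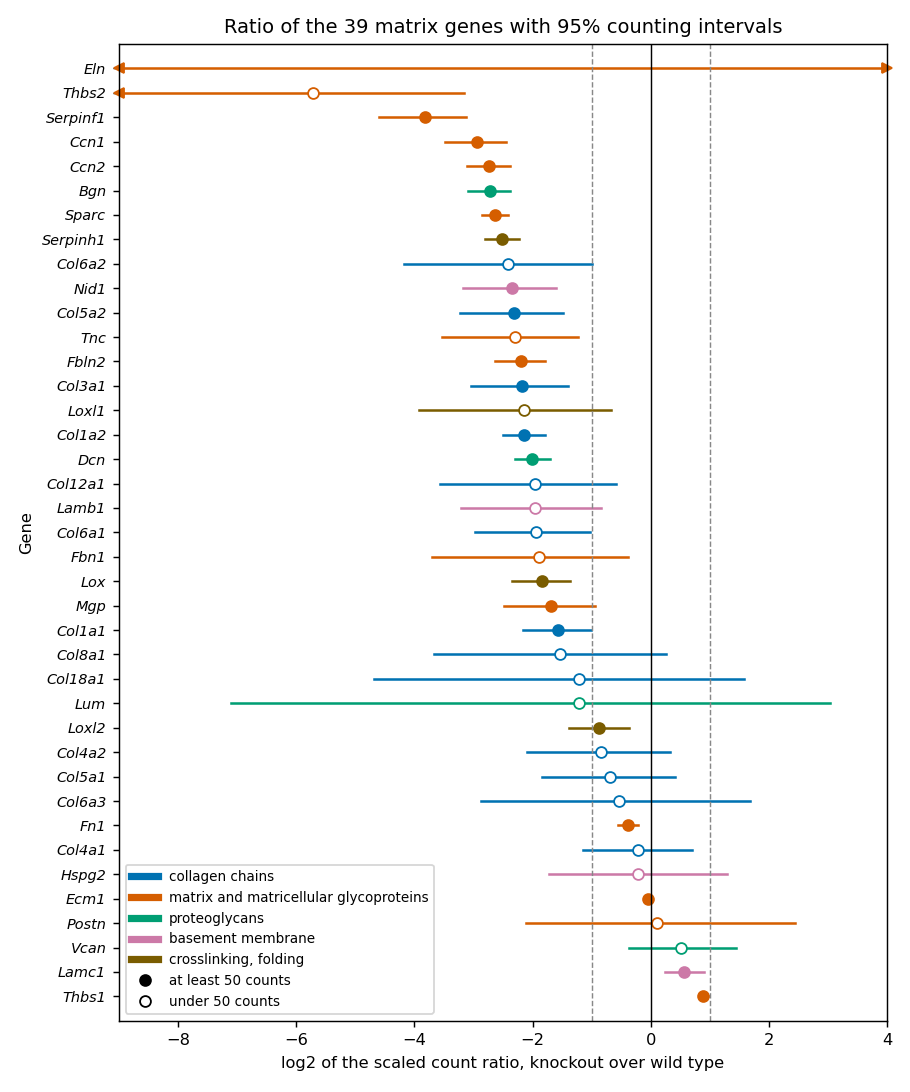
Log2 of the scaled count ratio, knockout over wild type with nothing added, for the 39 matrix genes, with 95% exact intervals for counting error. Filled points had at least 50 counts, open points fewer, dashed lines mark 2-fold, arrows show intervals that run past the axis, and Eln has no point because its knockout count is 0. The intervals of 25 genes lie wholly below 0, those of Thbs1 and Lamc1 wholly above, and 12 include 0. The share of all genes with intervals that exclude 0 was not counted.

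The small leucine-rich proteoglycans biglycan and decorin, which bind collagen fibrils and regulate their width, were both lower. Bgn had 449 and 79 counts, 6.63-fold lower (5.21 to 8.53). Dcn had 430 and 125 counts, 4.01-fold lower (3.28 to 4.93). Their FPKM values were close in wild type, 15.4 for Bgn and 18.9 for Dcn, and stood at 2.74 and 5.60 in knockout. The intervals of their ratios do not overlap, so by counting error Bgn was lower by more than Dcn. Vcan, versican, a large proteoglycan that monocytes also make, had 18 and 30 counts, 1.43 times the wild type level with an interval of 0.772 to 2.72. Its log2 ratio of 0.49 became -0.31 after length adjustment. Lum, lumican, had 2 and 1 counts.

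Promoter sequence is shown for Serpinf1, Ccn1 and Bgn, which have the lowest log2 ratios among members with enough counts and a promoter entry. Each run is the 250 bases before the RefSeq start in GRCm38.p6, read 5′ to 3′ on the gene's strand. The Entrez gene identifiers are 20317, 16007 and 12111. The Serpinf1 window lies at chr11:75422624-75422873 on the minus strand, Ccn1 at chr3:145649986-145650235 (minus) and Bgn at chrX:73483351-73483600 (plus). Capitals mark matches on either strand to 5 motifs. They are TATAAA, the core of the TATA element, GGAATG, bound by TEAD factors, GGGCGG, known as the GC box, TGACTCA, bound by AP-1, and the CCAAT letters themselves. Adjoining matches run together.
Serpinf1: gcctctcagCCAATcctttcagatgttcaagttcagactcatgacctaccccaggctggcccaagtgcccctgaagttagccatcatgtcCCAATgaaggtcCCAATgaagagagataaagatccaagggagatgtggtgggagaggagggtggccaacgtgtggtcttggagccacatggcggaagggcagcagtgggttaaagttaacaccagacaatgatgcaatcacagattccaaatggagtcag
Ccn1: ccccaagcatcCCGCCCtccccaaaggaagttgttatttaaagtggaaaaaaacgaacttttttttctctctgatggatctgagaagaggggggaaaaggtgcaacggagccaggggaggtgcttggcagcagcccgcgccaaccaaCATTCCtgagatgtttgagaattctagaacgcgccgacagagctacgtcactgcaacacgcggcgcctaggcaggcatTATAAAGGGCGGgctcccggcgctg
Bgn: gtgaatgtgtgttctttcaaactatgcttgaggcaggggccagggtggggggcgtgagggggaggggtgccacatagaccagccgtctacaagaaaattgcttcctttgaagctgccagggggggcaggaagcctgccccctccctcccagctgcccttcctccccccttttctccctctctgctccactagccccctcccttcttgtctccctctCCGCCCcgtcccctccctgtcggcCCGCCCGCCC

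Serpinf1 held 3 CCAAT boxes and none of the other motifs. Ccn1 held a TATA box that begins 25 bases before the start, with a GC box joined to it, a GC box further upstream, and a TEAD match on the other strand that begins 103 bases before the start. TEAD proteins are the DNA-binding partners of YAP and TAZ, and Ccn1 is a known target. Bgn held 3 GC boxes, of which a pair overlap, and no TATA box. Promoters were matched for 25 of the 39 members. The GC box occurred in 17 of the 25 (68%) and in 35.4% of the 27025 genes with an entry. Those 27025 include genes outside the 15605 listed in these data, so the 2 groups are not alike in detection. Of the 25, 6 held TATAAA and 5 GGAATG, against 14.3% and 14.4% of all genes, so 24% and 20% of members. TGACTCA was in 2 members and 5.16% of all genes, and CCAAT in 9 members and 37.5% of all genes. These are letter matches in a short window and show no binding.

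Basement membrane genes did not move as one. Nid1, nidogen-1, which bridges laminin and type IV collagen, had 79 and 18 counts, 5.12-fold lower (3.04 to 9.07). Lamb1 and Lamc1 encode the beta and gamma chains that share laminin trimers. Lamb1 had 30 and 9 counts, 3.89-fold lower (1.80 to 9.30), whereas Lamc1 had 119 and 206, 1.49-fold higher (1.18 to 1.88). The intervals of these partner chains do not overlap, and length adjustment placed Lamc1 at -0.21 and Lamb1 at -2.37 on the log2 scale, so the sign of Lamc1 depends on the adjustment. Per length, Lamb1 stood at an FPKM of 0.43 against 1.28 for Lamc1 in wild type, and at 0.13 against 2.25 in knockout. Hspg2, perlecan, had 9 counts in each library.

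The collagen chaperone and the crosslinking enzymes were lower to unequal extents. Serpinh1 encodes HSP47, a chaperone of the endoplasmic reticulum that is specific for procollagen. It had 593 and 121 counts, 5.71-fold lower (4.69 to 7.01), with an FPKM of 22.1 in wild type and 4.58 in knockout. Lysyl oxidases crosslink collagen and elastin outside the cell. Lox had 151 and 49 counts, 3.59-fold lower (2.59 to 5.07), and Loxl1 19 and 5, 4.43-fold lower (1.6 to 15.2). Loxl2 had 88 and 56 counts, 1.83-fold lower (1.30 to 2.61), an interval that overlaps narrowly with that of Lox. Length adjustment took Loxl2 from -0.86 to -1.30 on the log2 scale. All of these 4 assembly genes had intervals wholly below equality.

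The order of levels within the set differed between the libraries. Per length, Ecm1 was the highest member in both, at an FPKM of 137 in wild type and 158 in knockout. In wild type, Sparc came next at 34.7, then Thbs1 at 26.5, Serpinh1 at 22.1 and Dcn at 18.9. Thbs1 was second in the knockout library at 58.0, followed by Sparc at 6.59, Fn1 at 5.72 and Dcn at 5.60. Ecm1 and Thbs1 together made up most of the summed FPKM of the set in knockout, with 60.9% and 22.4%, against 41.6% and 8.01% in wild type. The number of members with an FPKM of at least 1 was 18 in wild type and 14 in knockout. Summed over all 39 members, counts were 10705 and 9538, 1.31-fold lower (1.27 to 1.35). Leaving out Ecm1, Thbs1 and Fn1, a choice made after their values were seen, gave 5079 and 1378 counts, 4.30-fold lower (4.05 to 4.56).

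**Figure D3:**
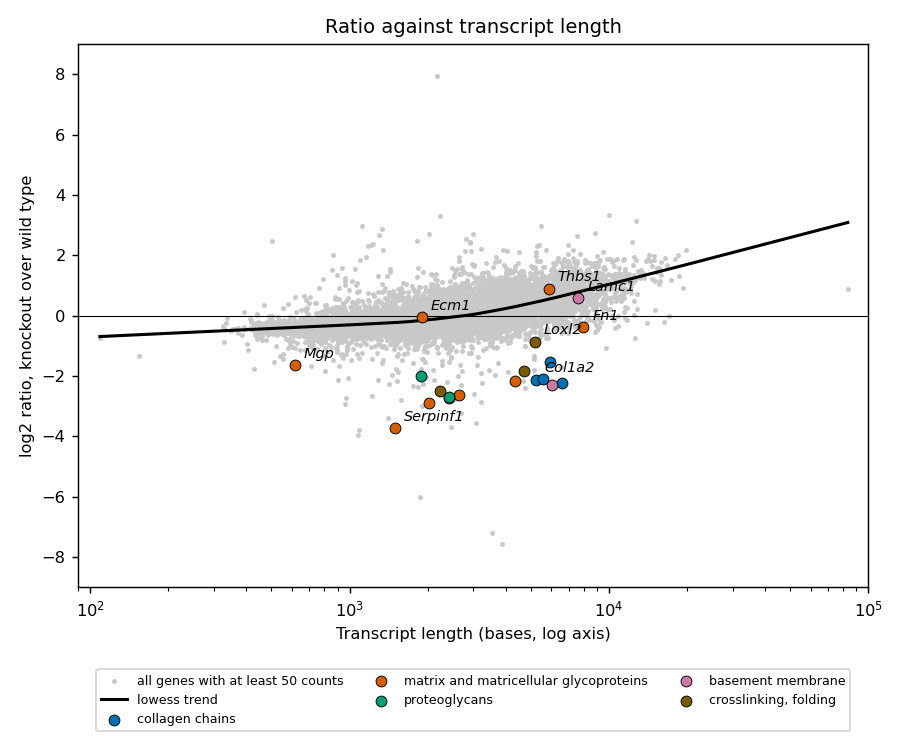
Log2 ratio, knockout over wild type after adding 1 scaled count, against transcript length on a log axis for all 9498 genes with at least 50 counts (grey), with their lowess trend (black line) and the 20 matrix genes coloured by role. Most matrix genes lie far below the trend across lengths from 614 to 7980 bases, while Thbs1 lies above it, Ecm1 slightly above and Lamc1 slightly below.

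Other genes of collagen processing and crosslinking lay close to equality where they had enough counts. Only 1 of 13 with enough counts was at least 2-fold lower and 0 were higher, against 1.74% and 6.05% of all genes. The median log2 ratio was -0.04. The gene beyond 2-fold was Plod2, a lysyl hydroxylase that prepares collagen for crosslinking, with 120 and 67 counts, 2.09-fold lower (1.54 to 2.86). P3h3, a prolyl hydroxylase family member, had a log2 ratio of -0.55 and Plod1, another lysyl hydroxylase, one of 0.43. Other matrix genes with enough counts numbered 10, and 2 of them passed 2-fold downwards and 1 upwards, around a median of -0.15. Igfbp7, a secreted binding protein of vessels and stroma, was 2.38-fold lower (2.01 to 2.84) from 401 to 196 counts. Tinagl1, a basement membrane glycoprotein, was 2.29-fold lower (1.44 to 3.72), and Agrn, agrin, was 2.13-fold higher (1.41 to 3.30). After length adjustment 1 of the 10, Tinagl1, was at least 2-fold lower and 0 higher.

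The median log2 ratio of 17 receptors for matrix with enough counts was 0.26. Of these, 0 were 2-fold lower and 3 passed 2-fold upwards, against 1.74% and 6.05% of all genes. These 3 were Lrp1, a large endocytic receptor for matrix proteins and proteases, Stab1, a scavenger receptor for SPARC, and Itgav, the alpha v integrin chain, with log2 ratios of 1.99, 1.14 and 1.06. All of them have long transcripts, and after length adjustment they stood at 0.58, 0.32 and 0.35 and 0 of the 17 passed 2-fold. Of 9 receptors with too few counts for that comparison, 1 had an interval wholly below equality and 0 wholly above. That gene was the syndecan Sdc2, with 44 and 14 counts, 3.66-fold lower (1.97 to 7.24). Targets of YAP and TAZ outside the set went both ways. Of 10 with enough counts, Gadd45a was 2.72-fold lower (2.45 to 3.02) and Myof 2.03-fold higher (1.89 to 2.18), and 8 lay between. Among those 8, Ankrd1 had 88 and 56 counts, 1.83-fold lower (1.30 to 2.61). Of all 19 listed targets, 6 had intervals wholly below equality and 7 wholly above. The log2 ratio of Myof, 1.02, was 0.30 once length was allowed for, within 2-fold. Dock5, a guanine nucleotide exchange factor, had a log2 ratio of 0.97, and -0.10 after length adjustment. The median of the 10 was 0.24, and -0.18 after length adjustment.

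Most markers of stromal cells with enough counts were lower alongside the matrix genes. Smooth muscle and myofibroblast markers with enough counts numbered 6. Of these, 5 were 2-fold lower or more and 0 higher, against 1.74% and 6.05% of all genes. The 10 listed of 11 summed to 2089 and 482 counts, with Myh11 at 0 in wild type and at 1 in knockout. Of the tested genes, Myl9 and Des had the lowest ratios, with 83 and 6 counts and 203 and 19 counts, and Tagln followed with 722 and 119. Cnn1, just under the minimum, had 46 and 3 counts, 17.9-fold lower (5.75 to 89.8). The 2 fibroblast markers at least 2-fold lower were the transcription factor gene Prrx1, 5.63-fold (2.99 to 11.5), and the growth factor receptor gene Pdgfra, 3.32-fold (2.21 to 5.10). The third with enough counts, Thy1, which T cells also carry, had 140 and 198. Fibroblast markers, 13 listed of 14, summed to 335 and 259 counts, with 2 at 0 in wild type, 3 at 0 in knockout and Dpt listed in neither file. Fap, a marker of activated fibroblasts, went the other way, with 0 wild type and 6 knockout counts and an interval that begins just above equality, at 1.01. Of the other 9 below the minimum, Cd34, Twist1 and Mfap5 had intervals wholly below it. The 9 listed of 10 mesothelial markers summed to 101 and 7 counts, with 7 at 0 in the knockout library, among them Msln and Upk3b. These 7 had few wild type counts, with 1 for Msln, 5 for Upk3b and the most, 7, for Lrrn4. Of the 9 intervals, 4 lay wholly below equality and 5, that of Msln among them, included it. Krt19 was the 1 tested, with 67 and 4 counts, and so held most of the summed wild type counts of this list. Of the markers at least 2-fold lower, Myl9, Des, Tpm2, Prrx1, Pdgfra and Krt19 had under 50 counts in the knockout library. Among all genes that met the minimum in the wild type library alone, 48.7% were at least 2-fold lower. Acta2, with 611 and 104 counts, and Tagln had at least 50 in both libraries, as did Cald1 and Thy1, which were not 2-fold lower.

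Markers of other cell types went in different directions. The 8 listed of 15 epithelial carcinoma markers summed to 34 and 37 counts, with none above 21, and the defining gene Epcam had 1 and 2. Endothelial markers, 5 listed of 10, summed to 131 and 158 counts, of which Kdr held 88 and 140. Esam, with 16 and 5 counts, and Egfl7, with 26 and 12, were 3.73-fold (1.31 to 13.0) and 2.53-fold lower (1.23 to 5.49), while Cdh5 had 1 and 0. T and NK cell markers summed to 324 and 788 counts. Of the 6 tested, 4 were at least 2-fold higher, against 6.05% of all genes with enough counts. Their log2 ratios were 2.01 for Klrd1, 1.95 for Klrb1c, 1.08 for Il2rb and 1.04 for Cd3d. The other tested genes, Cd3g with 36 and 50 counts and Nkg7 with 87 and 130, were not 2-fold higher. The part of any of these cell types in the matrix ratios was not tested, and the ratios cannot be assigned to macrophages.

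**Figure D4:**
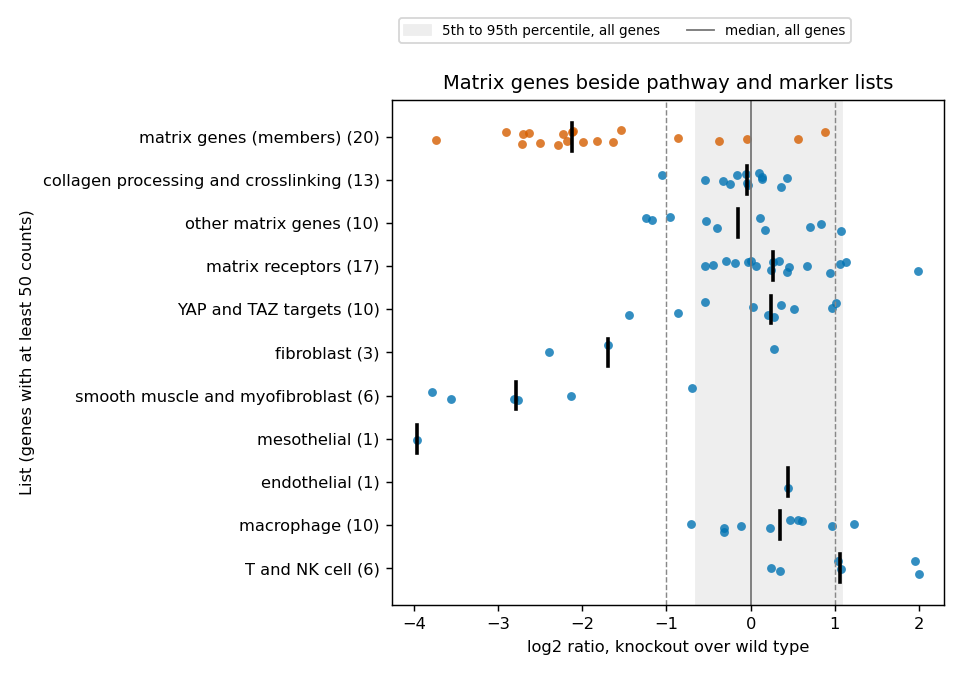
Log2 ratio, knockout over wild type after adding 1 scaled count, for the matrix genes (orange) and for pathway and marker lists (blue), each point 1 gene with at least 50 counts, with the number of genes in brackets and a black bar at the median. The grey band spans the 5th to 95th percentile of all 9498 genes, -0.64 to 1.08, and dashed lines mark 2-fold. The matrix genes, with a median of -2.12, lie on the side of the smooth muscle and fibroblast markers, while collagen processing genes and receptors lie mostly within the band.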

How the data were processed

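RNA was sequenced on BGISEQ-500, per the labels' protocols, from 1 sample labelled wild type and 1 labelled lgmn-/-. Per the file headers, the authors deposited an estimated count and an FPKM for each Entrez gene. The authors scaled FPKM to transcript length and library size, and estimated counts are unscaled. The submitters' processing notes name HISAT2, Bowtie2, RSEM and mm10 but give neither role nor version. The lowest FPKM listed is 0.01, and a gene missing from 1 file was taken as 0 counts there. Whether counting used strand is not known here.

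Symbols came from RefSeq for GRCm38.p6, which matched 15561 of 15605 identifiers, and promoters from the same build. Counts were rounded and scaled with TMM factors, 0.921 and 1.09 (edgeR 4.0.16, R 4.3.3). Folds use scaled counts with nothing added, and log2 ratios and the 2-fold threshold use 1 added scaled count. The length trend is a lowess with a span of 0.3 (statsmodels 0.14.6). Intervals used scipy 1.17.1. The calculation was tested on simulated data. Every member with at least 50 counts is named, other members by count or interval, and of each list the 3 tested genes with the largest ratios, with a few more chosen after their values were seen. The members and lists were chosen with earlier results of these data known. Alternatives included DESeq2 1.42.0 size factors, library totals, FPKM, other minimums, pseudocounts and thresholds.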

Additional observations from a re-analysis of the deposited data

How the results depend on the processing

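The number of members at least 2-fold lower, 15 of 20, was 15 under DESeq2 size factors, library totals, median centring, FPKM with 0.1 added, pseudocounts of 0.5 and 5 and a thinned deeper library. The share of all genes that were lower ran from 1.07% to 1.75% under those settings. The number of lower members was 17 after length adjustment, 16 at 1.5-fold, 11 at 4-fold and 10 with 1 added to FPKM. For all genes the share there was 1.9%, 6.39%, 0.474% and 0.726%. With other minimums different numbers of members enter, and 23 of 32 were lower at 10 counts, 25 of 39 with none and 9 of 13 at 200. The share of all genes at least 2-fold lower was 3.67%, 9.81% and 1.11% there. The number of members at least 2-fold higher, 0, was 1 (Thbs1) with library totals, with FPKM with 0.1 or 1 added and at 1.5-fold. The share of all genes that were higher was 10.9%, 9.85%, 2.97% and 16.4% there. The median of -2.12 ranged from -2.44 to -1.69 except with 1 added to FPKM, where it was -1.09, since that addition shrinks genes of low FPKM. Library totals moved the median of all genes to 0.24, and the members' median to -1.88. Of 233 single-gene values under the alternatives, 202 stayed within the gene's counting interval and 31 moved beyond it, and no member called lower changed sign. No paired analysis was possible because each genotype had 1 library, and for the same reason no replicate could be left out. Depth limits the 19 members under 50 counts, of which 8 had an interval wholly below equality, a share that was not counted over all genes.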

Other observations

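Several matrix genes outside the set had too few counts for the 2-fold comparison. Of 12 such genes of collagen processing, 4 had an interval wholly below equality and 0 wholly above, and of 26 other matrix genes 6 and 0. How often the intervals of all genes with few counts exclude equality was not counted. The genes named here were picked out after their values were seen. Fkbp10, a collagen chaperone of the endoplasmic reticulum, had 37 wild type and 7 knockout counts, 6.16-fold lower (2.71 to 16.4). Pcolce, which speeds the removal of the procollagen propeptide, had 37 and 11 counts, 3.92-fold lower (1.96 to 8.52). Bmp1, the protease that removes it, had 36 and 15, 2.80-fold lower (1.49 to 5.50). Ogn, the small proteoglycan osteoglycin, had 16 and 0 counts, at least 6.22-fold lower when 3 counts are allowed in the knockout library. Of 9 YAP and TAZ targets with few counts, 3 had an interval wholly below equality and 2 wholly above. Igfbp3, a secreted binding protein of insulin-like growth factors among the lower ones, had 12 and 0 counts, at least 4.66-fold lower on the same floor. The other lower ones were Amotl2, with 29 and 14 counts, and Ptpn14, with 10 and 1. The higher ones were Nt5e, with 3 and 16 counts, and Ajuba, with 5 and 18. Spp1, osteopontin, the gene with the most counts among the other matrix genes, had 49441 and 29733 counts, 1.94-fold lower (1.91 to 1.97).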
